A study of Columba livia with 4 samples.

Results

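Covered acetylated peaks are regions called for acetylated lysine 27 of histone H3 (H3K27ac) that have at least 50% of their bases under regions called for trimethylated lysine 27 of the same histone (H3K27me3). They were chosen from the H3K27ac peak list of pigeon melanocytes, on scaffolds whose highest peak end in any list is at least 1 Mb. There were 1278 of them among 26739 H3K27ac peaks on these 127 scaffolds and 34223 in the whole list. Primary melanocytes of Columba livia, labelled wild-type, were immunoprecipitated for H3K27ac, H3K27me3 and the transcription factor SOX10, with 1 library per target and an input library. All libraries came from the same growth conditions: Ham's F10 medium with fetal bovine serum (10%), Nu-serum (5%), antibiotics, the phorbol ester TPA (85 nM), cholera toxin (40 ng/mL) and endothelin-3 (10 ng/mL). How many birds or cultures the cells came from is not given in the sources used here. Covered peaks are set against 24844 uncovered peaks, which are H3K27ac peaks with no base under H3K27me3 on the same scaffolds. The remaining 617 peaks touched H3K27me3 with under 50% of their bases and are called partly covered.

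H3K27ac is laid down by the acetyltransferases p300 and CBP and marks active promoters and enhancers. H3K27me3 is laid down by Polycomb repressive complex PRC2 at silenced developmental genes. One lysine cannot carry an acetyl and a trimethyl group at the same time, so where both marks are truly present at one place they sit on different histone tails, for example on neighbouring nucleosomes, on different alleles or in different cells. Chromatin immunoprecipitation from a cell population cannot tell these apart, and what part peak calling or the assembly has in the overlap was not tested. SOX10 is a transcription factor of the neural crest that is kept on in melanocytes, where it acts at enhancers of pigment genes.

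H3K27me3 peaks took up 2.73% of the span of these scaffolds, and 2.23% of H3K27ac bases lay under them. Of the H3K27ac peaks, 4.78% met the rule and 7.09% touched H3K27me3 at all. The covered peaks held 0.642 Mb. That made up 1.88% of H3K27ac bases, while 71.2% of the bases shared by both marks lay in covered peaks. A total of 653 (51.1%, exact 95% interval 48.3 to 53.9%) lay wholly under H3K27me3, which is 34.5% of the peaks that touched it. A further 325 were 75 to under 100% covered, and 300 were 50 to under 75% covered. These values follow from the rule and are a description, and intervals here and below cover counting error only, since neighbouring peaks are not independent.

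The number of peaks did not step at the 50% limit: 60 peaks were 50 to under 55% covered and 52 were 45 to under 50% covered. Closest inside it among peaks of at least 500 bp was a peak of 801 bp at 492257 to 493057 of scaffold AKCR02000025.1, with 50.1% covered, an H3K27ac fold over local background of 5.3 and an H3K27me3 fold of 3.46. Next came peaks at 8049337 to 8050204 of AKCR02000002.1 and 2919497 to 2920830 of AKCR02000033.1, with H3K27ac folds of 4.68 and 3.33. Closest outside it was a peak of 1687 bp at 13752969 to 13754655 of AKCR02000017.1, with an H3K27ac fold of 3.9 and an H3K27me3 fold of 2.71. The other close ones, at 7234620 to 7235193 of AKCR02000005.1 and 1458051 to 1458620 of AKCR02000113.1, were 49.8% covered and had H3K27ac folds of 7.75 and 2.82.

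Covered peaks were narrow. Their median width was 397.5 bp (interquartile range 299 to 559 bp), against 761 bp (429 to 1522 bp) for uncovered peaks, and 1281 bp for partly covered peaks. Widths under 500 bp made up 69.6% of covered and 31.8% of uncovered peaks. Widths of at least 1 kb made up 6.34% of covered and 39.4% of uncovered peaks. The smallest width in the list, 254 bp, was that of 130 covered peaks (10.2%) and 964 uncovered peaks (3.88%). A short interval needs fewer trimethylated bases to reach 50%, so the rule itself favours narrow peaks. For this reason uncovered peaks were weighted below so that their widths match, which gave them a median of 397 bp and an interquartile range of 299 to 560 bp.

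**Figure D1:**
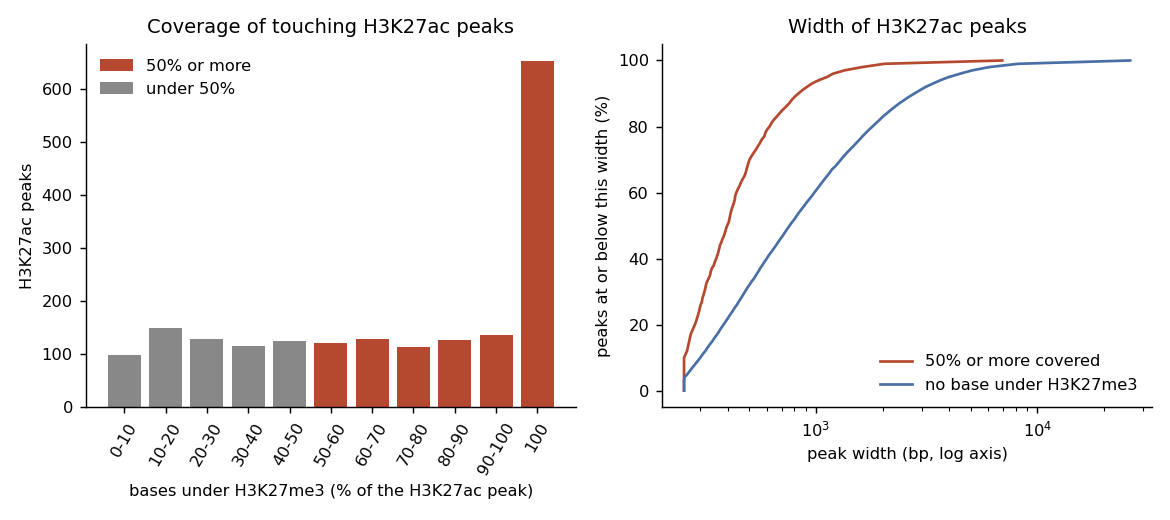
Left, H3K27ac peaks on scaffolds of at least 1 Mb by the percentage of their bases under H3K27me3, for the 1895 peaks that touch it; 653 peaks lie wholly under the mark. Right, the percentage of peaks at or below each width (log axis) for covered and uncovered peaks, with medians of 397.5 bp for covered and 761 bp for uncovered peaks.

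At like width, acetylation was slightly higher in covered peaks than in uncovered ones. The authors' fold enrichment over local background had a median of 3.55 (interquartile range 3.09 to 4.36) in covered peaks, against 3.23 (2.84 to 3.95) in width-weighted uncovered peaks and 3.80 without weights. A −log10 q of at least 3 was reached by 50.5% of covered peaks (47.8 to 53.3%) and 45.4% of width-weighted uncovered peaks. Folds of at least 5 were found in 195 covered peaks (15.3%, 13.3 to 17.4%), against 12.1% of width-weighted uncovered peaks. Among peaks of 500 to under 1000 bp, median fold was 3.415 in wholly covered peaks and 4.04 in those covered 50 to under 100%. In the same range of width it was 4.30 in partly covered and 3.61 in uncovered peaks. No test is given for these or the later comparisons, because each target has 1 library and peaks of a library are not replicates.

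The trimethylated peaks that covered them were stronger than others of their width. The 1278 covered peaks lay in 1225 different H3K27me3 peaks, which were 4.29% of the 28556 on these scaffolds. H3K27me3 fold had a median of 4.62 (3.68 to 6.25) in these 1225, against 3.39 (2.96 to 4.67) in the other H3K27me3 peaks after matching on width. The −log10 q of at least 3 was reached by the H3K27me3 peak at 71.3% of covered peaks, and by both marks at 458 of them (35.8%). The folds of the 2 marks did not go together across the 1278 covered peaks (Spearman's rho −0.03, Pearson's r −0.03 on the log2 scale), and neither did their widths (rho 0.02). These points share 2 libraries, and each list has its own lower limit of fold.

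The covered peaks of highest acetylation had H3K27me3 folds between 4.13 and 5.57, around the median of 4.68 over all covered peaks. The highest fold, 25.1, was at 306821 to 307449 of AKCR02000123.1, a peak of 629 bp that lay wholly inside an H3K27me3 peak of 2315 bp and fold 4.13. It was 144210 bp from the next H3K27ac peak. A fold of 21.9 was found at 3203399 to 3204182 of AKCR02000055.1, with 61% covered and an H3K27me3 fold of 5.06. The next ones, with folds of 19.5, 19.3 and 19, all lay on AKCR02000044.1, at 2078261 to 2079073, 752013 to 752575 and 12361 to 14511. Their H3K27me3 folds were 5.57, 4.75 and 4.23, and they were 55.3 to 79.3% covered. Among these 5, all but the peak on AKCR02000123.1 reached beyond the edge of H3K27me3.

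The widest covered peak measured 6936 bp, at 9309664 to 9316599 of AKCR02000027.1, with an H3K27ac fold of 9 and 63.7% of its bases covered. The H3K27me3 peak that shared most bases with it ended at 9311713, left of its midpoint, so its cover came from more than 1 H3K27me3 peak. Only 11 covered peaks had cover from 2 or 3 H3K27me3 peaks. On AKCR02000010.1, peaks of 4312 bp (6297693 to 6302004) and 3101 bp (6289459 to 6292559) lay in one H3K27me3 domain of 70.6 kb, with H3K27ac folds of 15.8 and 5.31. The others among the widest were 2634 bp at 13732087 to 13734720 of AKCR02000016.1 and 2362 bp at 3094584 to 3096945 of AKCR02000069.1, the second of these 1.71 kb from the end of the span of its scaffold.

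Place within the trimethylated peak depended on relative width. For an interval at least 50% covered by 1 peak, the midpoint must lie inside that peak, and midpoints spread evenly would fall in its central 50% in 50% of cases. Of all covered peaks, 800 (62.6%, 59.9 to 65.3%) had their midpoint there. Among the 341 covered peaks whose width was 75 to 133% of that of the H3K27me3 peak, 258 did (75.7%, 70.7 to 80.1%). As a class, peaks of like width were thus more often centred than an even spread gives. Median widths in that class were 435 bp for H3K27ac and 425 bp for H3K27me3. The class included centred pairs that resembled each other in both widths. Examples are H3K27ac peaks of 422 and 432 bp on H3K27me3 peaks of 386 and 388 bp, in the same order. The part of such recurring pairs in the central share was not tested, so centring is not read as a general trait of like width. The share was 65.2% (60.3 to 69.9%) for the 394 at 25 to under 75% of the width and 64.8% (57.0 to 72.1%) for the 165 over 133%. For the 378 that were narrower than 25% it was 47.1% (42.0 to 52.3%), an interval that holds the even value, and their midpoints were spread along the whole H3K27me3 peak. The midpoint lay outside the H3K27me3 peak with most shared bases in 7 cases.

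**Figure D2:**
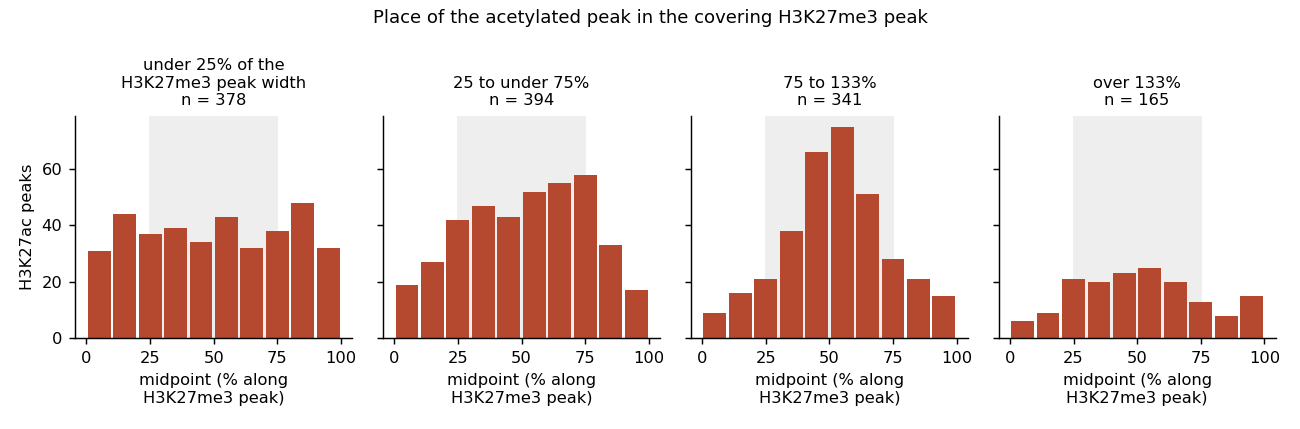
Number of covered peaks by the position of their midpoint along the covering H3K27me3 peak (% of its width), in 4 classes of H3K27ac width relative to H3K27me3 width; grey marks the central 50%. The class of like width peaks in the middle (258 of 341 in the central 50%), and the narrowest class is flat (178 of 378).

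These classes differed in the chromatin around them. Covered peaks narrower than 25% of their H3K27me3 peak had a median H3K27me3 fold of 6.77, an H3K27ac fold of 3.27 and a surrounding H3K27me3 domain with a median length of 17872 bp. For peaks of like width the medians were 4.07, 3.72 and 1926 bp. For those over 133% of the width they were 3.71, 4.22 and 916 bp. Their H3K27me3 peak was the only one of its domain in 16.1% of the narrowest class, 44.9% of the class of like width and 50.3% of the widest class. H3K27me3 peak width enters both the class and the domain length, so these values are tied by construction. H3K27ac width enters the class too, and H3K27ac fold rose with it across covered peaks (Spearman's rho 0.32). The fold medians of the classes are thus not free of width. Over all covered peaks the folds of the 2 marks did not go together (rho −0.03).

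A domain here is a run of H3K27me3 peaks merged over gaps of up to 5 kb. The 1278 covered peaks fell in 973 of the 12074 domains on these scaffolds. Median domain length, counted once per covered peak, was 5935.5 bp (interquartile range 1205.8 to 18914 bp). Domains of at least 20 kb held 309 covered peaks (24.2%, 21.8 to 26.6%), against 38.8% of all bases under H3K27me3. That share was 11.7% on scaffolds of at least 10 Mb and 30.8% on those of 1 to 10 Mb, against 26.2% and 49.5% of the bases in the same order of scaffolds. With an H3K27me3 −log10 q of at least 3 it was 15.2%, against 24.8% of the bases. Domains under 1 kb held 302 (23.6%), against 8.80% of the bases. Per Mb under H3K27me3 there were 124 covered peaks in domains under 1 kb, 101 in those of 1 to 2 kb, 51.7 in those of 2 to 5 kb, 38.4 in those of 5 to 20 kb, 26.9 in those of 20 to 100 kb and 36.1 in those of at least 100 kb. An H3K27ac peak can hang over the edge of a short domain and still be 50% covered, which adds to the count there. Wholly covered peaks were 21.9% of those in domains under 1 kb and 78.2% of those in domains of at least 100 kb. They numbered 66 over 2.44 Mb under H3K27me3 in domains under 1 kb, and 61 over 2.16 Mb in those of at least 100 kb. Per Mb, wholly covered peaks were thus about as frequent in the shortest domains as in the longest. In domains of 1 to 2 kb there were 53 over 0.968 Mb, and in those of 20 to 100 kb 162 over 8.59 Mb. A wholly covered peak, of at least 254 bp, must fit inside its domain, and the shortest domains are 227 bp. Short domains thus have fewer places for one per Mb. The counts per Mb do not allow for this, so no like rate per place is read from them. Shares by domain length moved with the merging gap: domains of at least 20 kb held 11% of covered peaks and 20.9% of the bases with a gap of 2 kb, and 45.5% of covered peaks and 59.9% of the bases with a gap of 12 kb.

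**Figure D3:**
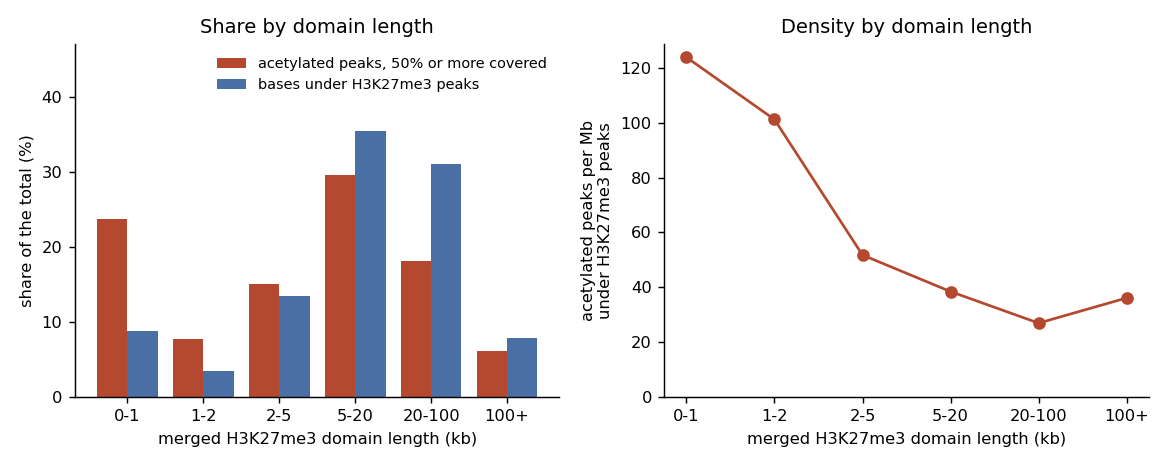
Left, share of the 1278 covered peaks and of all bases under H3K27me3 by length of the merged H3K27me3 domain (kb). Right, covered peaks per Mb under H3K27me3 in the same classes, from 124 in domains under 1 kb to 26.9 in those of 20 to 100 kb. Peaks that hang over the edge of a domain are included.

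Long domains held a covered peak more often than short ones. Domains with more bases have more room for one, and the part of this in the shares was not tested. At least 1 was found in 4.78% of domains under 1 kb, 11.7% of those of 5 to 20 kb, 25.3% of those of 20 to 100 kb and 65% of those of at least 100 kb, and in 8.06% of all domains. Of the 470 domains of at least 20 kb, 343 held none, 68 held 1 and 30 held at least 3. Those 30 domains contained 183 of the 309 covered peaks in long domains. Among the 20 domains of at least 100 kb, 13 held at least 1. Of the 442 H3K27ac peaks assigned to long domains, 309 (69.9%) were covered, 77 partly covered and 56 lay in gaps with no base under H3K27me3. H3K27me3 peaks made up 56.1% of the length of long domains, and the split follows from the 50% rule, so nothing is read from it. Of the 309, 142 (46.0%, 40.3 to 51.7%) lay in the central 50% of their domain, a part that held 52.4% of the H3K27me3 bases of the same domains.

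The domain with most covered peaks, 13, spanned 277 kb at 422409 to 699546 of AKCR02000104.1, with 82.2% of its length under H3K27me3 and 2.06% under H3K27ac. The 13 peaks were 254 to 589 bp wide, 11 were wholly covered, and their H3K27ac folds ran from 2.62 to 8.44. A domain of 151 kb at 3382541 to 3533284 of AKCR02000061.1 held 12, with folds of 2.52 to 3.68, and none of its 13 H3K27ac peaks was free of H3K27me3. Neither domain had a SOX10 summit.

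A different picture was seen on AKCR02000027.1, in the domain of 59.4 kb from 9272114 to 9331544, which also held 12 covered peaks and had 36.1% of its length under H3K27ac. It contained the widest covered peak and 5 SOX10 summits. At 20.2 covered peaks per 100 kb it was the densest of the 5 domains with most. The domain of 131 kb at 809108 to 939634 of AKCR02000122.1 held 11 covered peaks and 5 SOX10 summits, but none of the 11 overlapped a SOX10 peak. The domain of 128 kb at 513439 to 641915 of AKCR02000043.1 held 9, with a median width of 268 bp and no SOX10 summit.

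Covered peaks kept company with each other. They made up 4.78% of all H3K27ac peaks on these scaffolds. The nearest other H3K27ac peak was itself covered for 366 of them (28.6%, 26.2 to 31.2%), against 2.79% of width-weighted uncovered peaks. Partly covered peaks lay between, with 81 of 617 (13.1%, 10.6 to 16.05%), so a raised share was not particular to covered peaks. The share for covered peaks was 16.9% on scaffolds of at least 10 Mb, where 2.94% of all H3K27ac peaks were covered. It was also 16.9% among H3K27ac peaks with a −log10 q of at least 3. That limit was reached by 646 covered, 503 partly covered and 16345 uncovered peaks. Among H3K27ac peaks within 1 kb of a covered peak, 37.5% (102 of 272) were covered, against 1.03% around uncovered peaks. At 20 to 100 kb the share was 20.3% around covered and 4.52% around uncovered peaks, and at 100 to 500 kb it was 17.1% around covered and 5.29% around uncovered peaks. These shares by distance carry no width weights. Pairs are counted from each side, so these counts are not independent. A neighbour can be covered only where H3K27me3 is present, so clustering of the mark enters this share.

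**Figure D4:**
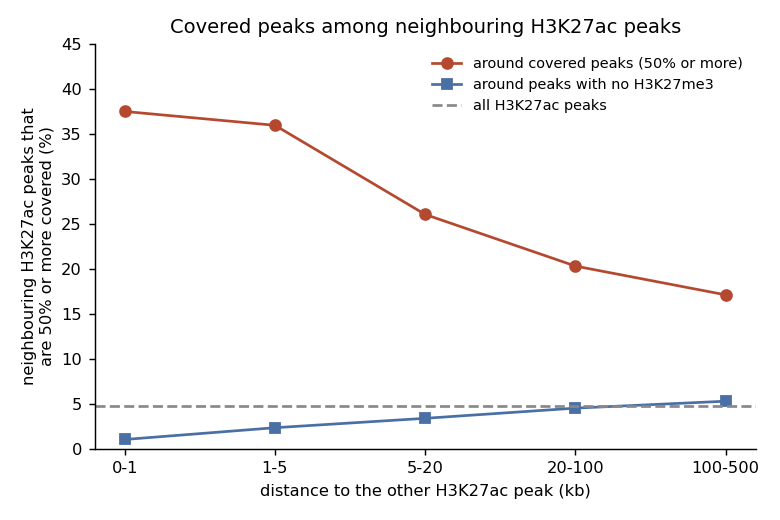
Percentage of neighbouring H3K27ac peaks that are at least 50% covered by H3K27me3, by distance (kb) from covered and from uncovered peaks; the dashed line is 4.78%, the share among all H3K27ac peaks. Around covered peaks the share is 37.5% within 1 kb and 17.1% at 100 to 500 kb.

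In consecutive order along the scaffold, 748 covered peaks had no covered peak next to them in the H3K27ac list. The others formed 109 runs of 2, 45 of 3 and 32 longer runs. The longest run held 11 covered peaks over 132388 bp, at 3383887 to 3516274 of AKCR02000061.1. Runs of 10 were at 426562 to 519227 of AKCR02000104.1 and at 9288334 to 9317433 of AKCR02000027.1, the second within 29100 bp. Another covered peak lay within 20 kb of 539 (42.2%) and within 100 kb of 744 (58.2%).

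Although they clustered, covered peaks stood apart from the dense acetylated regions. The nearest other H3K27ac peak was a median of 5125 bp away, against 1321 bp for width-weighted uncovered peaks. It was within 1 kb for 19.6% of covered peaks (17.4 to 21.8%) and 45.2% of width-weighted uncovered peaks, and over 20 kb away for 23.2% of covered and 13.4% of width-weighted uncovered peaks. When H3K27ac peaks were merged over gaps of up to 5 kb, 645 covered peaks (50.5%) stayed alone, against 31.3% of uncovered peaks without weights. Width was not held fixed in this last comparison. In 327 merged H3K27ac domains a covered and an uncovered peak stood together, and these contained 464 covered peaks (36.3%). Several covered peaks and no other made up 48 domains.

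Covered peaks were spread over 112 of the 127 scaffolds, and 16 scaffolds held 50% of them. AKCR02000043.1, with a span of 5.80 Mb, had the most, 63, which were 13.8% of its H3K27ac peaks. AKCR02000027.1 had 52 (15.9%) and AKCR02000061.1 had 46 (13.3%). AKCR02000001.1 and AKCR02000002.1, the longest at 94.5 and 79.4 Mb, had 45 each, or 2.59% and 2.67% of their H3K27ac peaks. The 25 scaffolds of at least 10 Mb carried 0.670 covered peaks per Mb, and the 102 of 1 to 10 Mb carried 2.36. Per Mb under H3K27me3 the values were 35.2 and 55.3, a smaller gap. Across the 127 scaffolds, covered peaks per Mb rose with the percentage of the span under H3K27me3 (Pearson's r 0.88, Spearman's rho 0.74), which the rule needs, and with that under H3K27ac (r 0.63, rho 0.50). These are descriptions of 1 pair of libraries.

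Shorter scaffolds and the ends of spans carried more of them. On scaffolds under 1 Mb, which the rule leaves out, 1478 of 7484 H3K27ac peaks (19.7%) were at least 50% covered, and over all scaffolds the share was 8.05%. On the scaffolds used, 45 covered peaks (3.52%, 2.58 to 4.68%) lay within 10 kb of an end of the span, against 0.649% of width-weighted uncovered peaks. Partly covered peaks did so in 2.59% of cases (1.49 to 4.18%), an interval that overlaps the covered one. Scaffold length was not held fixed in these shares. On scaffolds of 1 to 10 Mb lay 834 of 1278 covered and 10391 of 24844 uncovered peaks. Spans start at the first base of the scaffold and end at the last peak in any list. The end set by the last peak is not known to be a true scaffold end. What part the assembly has in these values was not tested.

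SOX10, which the rule did not use, was rare at covered peaks. A SOX10 peak shared at least 1 base with 19 of the 1278 (1.49%, 0.897 to 2.31%), against 3.88% of width-weighted uncovered peaks (a ratio of 0.383), 11.0% of uncovered peaks without weights and 10.7% of all H3K27ac peaks on these scaffolds. The width-weighted value for uncovered peaks was above the upper bound for covered ones. Paired 1 to 1 by nearest width, the uncovered share was 2.82% (1.98 to 3.88%, overlapping the covered interval) and the ratio 0.528. Of uncovered peaks with equal width, the first in scaffold order was taken, so these pairs were not drawn evenly from all scaffolds. Within 2% of each covered peak's width the uncovered share was 3.47% and the ratio 0.429. With weights over 5 classes of width by 5 of H3K27ac fold they were 5.28% and 0.281. In the widest of the 20 width classes covered peaks were still narrower, with a median of 1480 bp, against 1975.5 bp for uncovered peaks. SOX10 overlap in that class was 6.25% (4 of 64) for covered and 23.75% (2064 of 8692) for uncovered peaks. Width is thus not fully matched there, and the part of this class in the ratio of 0.383 was not tested.

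By width, SOX10 overlap was closest, in percentage points, in the narrowest class and furthest apart in the widest, where widths are not matched. In the narrowest of 5 classes, up to 284 bp, it was 0.781% (0.0947 to 2.79%) for covered and 1.01% (0.619 to 1.56%) for uncovered peaks, which was not a detectable difference at these counts. In the second class, 285 to 354 bp, it was 0.787% (0.0955 to 2.815%) for covered and 2.09% (1.53 to 2.78%) for uncovered peaks. In the third, 355 to 437 bp, it was 1.17% (0.241 to 3.37%) for covered and 2.29% (1.71 to 2.99%) for uncovered peaks. The intervals overlapped in both of these classes. In the fourth class, 439 to 616 bp, it was 1.57% (0.429 to 3.97%) for covered and 3.28% (2.74 to 3.89%) for uncovered peaks, with overlapping intervals. From 619 bp upwards it was 3.12% (8 of 256, 1.36 to 6.06%) for covered and 17.0% (16.4 to 17.6%) for uncovered peaks, with wider peaks among the uncovered. For peaks of 500 to under 1000 bp the share was 0.990% (1 of 101) in wholly covered peaks and 1.46% (3 of 206) in those covered 50 to under 100%. It was 7.06% (12 of 170) in partly covered peaks and 5.59% (399 of 7133) in uncovered ones.

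By strength of acetylation the shares were furthest apart, in percentage points, in the higher classes. In the lowest of 5 classes of covered peaks by H3K27ac fold, 0 of 256 overlapped SOX10 (exact interval 0 to 1.43%). Of uncovered peaks in that range, 1.53% (1.22 to 1.89%) did. The uncovered value was just above the covered upper bound, while the intervals overlapped, and no test is given. In the second class the share was 1.57% (0.429 to 3.97%) for covered and 3.29% (2.73 to 3.93%) for uncovered peaks, with overlapping intervals. In the third class the share was 0.391% (1 of 256, upper bound 2.16%) for covered and 5.63% (4.90 to 6.44%) for uncovered peaks. In the fourth, 1.57% of covered (0.429 to 3.97%) and 9.56% of uncovered peaks (8.67 to 10.5%) overlapped SOX10. In the highest, with folds from 4.65, 10 of 256 did (3.91%, 1.89 to 7.07%), against 23.4% of uncovered peaks. Uncovered peaks in that class are wider, and width was not held fixed in any of the 5 classes.

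**Figure D5:**
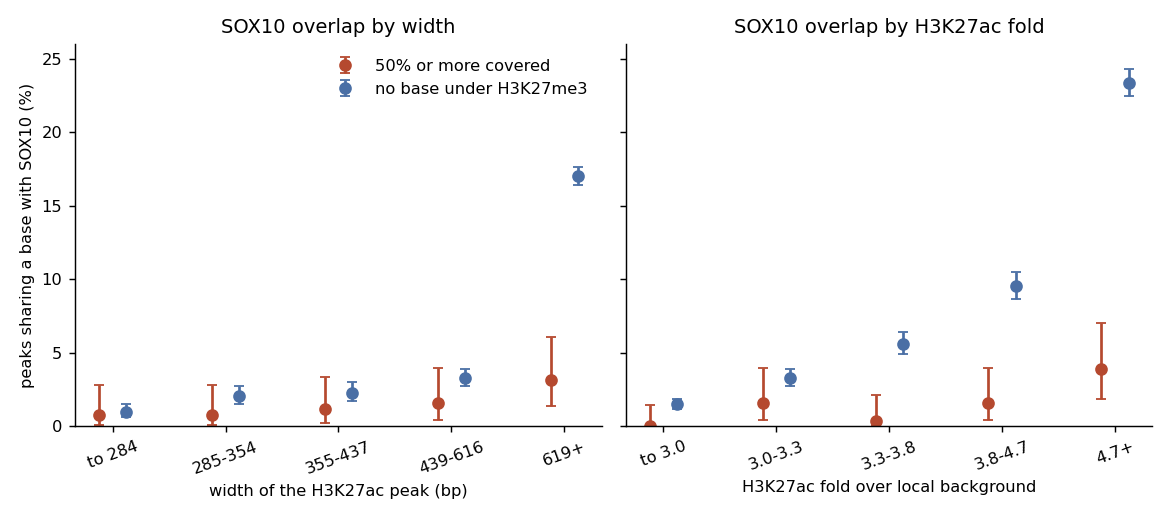
Percentage of H3K27ac peaks that share at least 1 base with a SOX10 peak, by width (bp) and by H3K27ac fold, in 5 classes of about equal numbers of covered peaks; bars are exact 95% binomial intervals. In the highest fold class covered peaks are at 3.91% and uncovered peaks at 23.4%.

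SOX10 was also less often close by. Of the covered peaks, 45 (3.52%) had no overlap but a SOX10 summit within 2 kb, against 8.08% of width-weighted uncovered peaks. At 2 to 20 kb the share was 27.1% of covered and 27.8% of width-weighted uncovered peaks. The median distance to the nearest summit was 38674 bp for covered and 30711 bp for width-weighted uncovered peaks. The share with SOX10 overlap was 2.03% (9 of 444, 0.931 to 3.81%) on scaffolds of at least 10 Mb and 1.20% (10 of 834, 0.576 to 2.19%) on those of 1 to 10 Mb, where width-weighted uncovered peaks had 3.86% and 3.88% in the same order of scaffolds.

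The 19 covered peaks with SOX10 had a median width of 482 bp and a median H3K27ac fold of 4.89, and 6 of them were wholly covered. They lay on 15 scaffolds and carried 22 SOX10 peaks, of which 20 had their summit inside the H3K27ac peak and 14 inside H3K27me3. 

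The strongest SOX10 peak at a covered peak, at 9314208 to 9314563 of AKCR02000027.1, had a SOX10 fold of 7.35 and 87 fragments at its summit over a local background of 11. It was in the covered peak of 6936 bp, as were SOX10 peaks at 9313682 to 9313978 (fold 4.78, 40 fragments) and 9315032 to 9315318 (fold 3.23, 57 fragments). None of these summits was under H3K27me3. Next in fold were peaks of 5.03 at 3196943 to 3197106 of AKCR02000036.1 and 4.59 at 6423341 to 6423492 of AKCR02000034.1, with 23 and 21 fragments. Both of these had their summit under both marks.

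A SOX10 peak of fold 4.23 at 4333451 to 4333663 of AKCR02000002.1 had its summit in a covered peak of H3K27ac fold 6.34 and H3K27me3 fold 6.09. On AKCR02000055.1, the SOX10 peak at 3203626 to 3203986 had a fold of 4.14 and 34 fragments, in the covered peak with an H3K27ac fold of 21.9. A peak of fold 4.03 at 5744827 to 5744957 of AKCR02000017.1 had its summit outside H3K27me3. On AKCR02000019.1, the SOX10 peak at 656324 to 656481 had a fold of 3.96 in a wholly covered peak of 385 bp with an H3K27me3 fold of 9.09. A covered peak of 2246 bp at 36276205 to 36278450 of AKCR02000005.1, with an H3K27ac fold of 15.6, held SOX10 peaks of fold 3.85 and 3.38, both with the summit outside H3K27me3. The last of the 10 covered peaks ranked by SOX10 fold, 254 bp wide at 786139 to 786392 of AKCR02000007.1, was wholly covered and held a SOX10 peak of fold 3.78 with its summit under both marks. The peak of fold 3.81 at 8792267 to 8792491 of AKCR02000027.1 had its summit outside the covered peak and outside H3K27me3.

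The summit depth of these 22 SOX10 peaks was low. They held 19 to 216 fragments with a median of 25, over a median local background of 6.99, against medians of 34 and 9.98 for the 3079 SOX10 peaks at uncovered peaks. Their median fold was 3.75, against 3.28. Among called SOX10 peaks, background was thus lower and fold higher at covered peaks. Background at covered peaks without a SOX10 peak cannot be read from these lists. With few background fragments a peak needs a higher fold to pass the q-value limit, and the part of this in the SOX10 share was not tested. The peak with 216 fragments, at 7668183 to 7668443 of AKCR02000028.1, had a background of 104 and a fold of 2.07, and the H3K27me3 fold of 2.05 there was the lowest of the covered peaks.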

How the data were processed

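Per the submitters' processing notes, the tools were MACS3 3.0.0, Bowtie2 2.2.9, SAMtools 1.16 and bcl2fastq 2.20. Per the labels' protocols, cells were fixed in 1% formaldehyde for 15 min, chromatin was sheared to 300 to 500 bp and single ends of 75 nt were read. The authors deposited 1 peak list per immunoprecipitated library, with a fold ratio over local background, p-value and q-value as −log10, and a score that was not used. Their fold and q belong to the SOX10 summit or the whole histone peak. The sources used here give neither caller settings nor control library nor genome build, and total depth is unknown.

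The lists hold 34223 H3K27ac, 36792 H3K27me3 and 6579 SOX10 peaks, with largest q-values of 0.0968, 0.0965 and 0.0462. Coordinates count from 1. Scaffold span is the highest peak end in any list. Widths were matched by weighting uncovered peaks over 20 width classes. Fragments and background at SOX10 summits were solved from the deposited fold and p, which they met within 0.000645 in log10 p for all peaks. Intervals are exact 95% binomial. No gene was named and no sequence read, since the gene table belongs to another assembly. Regions named are the 5 widest covered peaks, the 5 of highest H3K27ac fold, 10 by SOX10 fold, the 3 on each side of the 50% limit, and the 5 domains and scaffolds with most. Members and lists were chosen with earlier results of these data known. Functions were tested on simulated data (Python 3.11.15, numpy 2.4.6, pandas 2.3.3, scipy 1.17.1).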

Additional observations from a re-analysis of the deposited data

How the results depend on the processing

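Of 91 recalculations, 47 stayed within the first value's 95% interval or, for the number of covered peaks, within 1.5 times. The ratio of SOX10 overlap in covered over uncovered peaks was below 1 in each alternative (0.281 to 0.585 with weights, 0.135 with no weights, where uncovered peaks had 11%). For the other values that moved, the cause was not tested beyond what each setting changes by construction. With at least 25% covered, median width was 434 bp, the central share 53.4%, the share whose nearest H3K27ac peak is also covered 31.2%, and SOX10 overlap 2.85% in covered and 4.87% in uncovered peaks. With at least 75% covered, width was 366 bp, the central share 70%, the share in domains of at least 20 kb 27.5% and uncovered SOX10 overlap 3.36%. The 653 wholly covered peaks had 334 bp, 68.1%, 34.2% in long domains, 26% with a covered neighbour and 2.97% for uncovered SOX10 overlap. The even value of 50% for the central share belongs to the limit of 50% covered. It does not hold at other limits, so their central shares are not read as more or less centring. An H3K27ac −log10 q of at least 3 left 646 covered peaks, with 443 bp, 19.7% in long domains, 16.9% with a covered neighbour, and SOX10 overlap of 2.32% in covered and 6.28% in uncovered peaks. The same limit on H3K27me3 put 15.2% in long domains. All scaffolds gave 2756 covered peaks, 431 bp, 29% in long domains, 35.6% with a covered neighbour and 4.35% for uncovered SOX10 overlap. Scaffolds of at least 10 Mb gave 444, 11.7% in long domains and 16.9% with a covered neighbour. The share in long domains was 11% with a merging gap of 2 kb and 45.5% with 12 kb. SOX10 overlap of uncovered peaks was 2.74% by summit, 2.75% with 50% of the SOX10 peak inside, 2.82% paired by nearest width and 5.28% with fold among the weights. A SOX10 −log10 q of at least 5 gave 0.782% for covered and 2.18% for uncovered peaks. Chosen after seeing the data were uncovered peaks within 5 kb of H3K27me3 (4.73%) and weights over scaffold and width (4.88%), 20 width and 5 fold classes (4.24%) or widths within 2% (3.47%). Without AKCR02000043.1, the scaffold with most, none of the 8 values left its interval (1.5 times for the count). No paired analysis was possible because there is only 1 library for every target, and no replicate could be left out. Depth is unknown, and the SOX10 share rests on 19 covered peaks.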
